A study of Mus musculus with 11 samples.

Results

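The BTG/TOB antiproliferative family was measured in the anterior cingulate cortex (ACC) of mice that had learned to press a lever for food and of mice that had not. The 5 members examined here, Btg1, Btg2, Btg3, Tob1 and Tob2, were found by symbol among the 14974 genes of the expression table. The family was selected on the contrast of the same libraries, with the difference of Btg2 already seen, and Btg2 is also among the genes that the study itself displays. The training differences of the members are therefore given as a description, and their intervals and p thresholds are not read as a test.

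Messenger RNA was sequenced from the ACC of 11 adult wild-type C57BL/6 mice (C57BL/6J in the methods of the study), 1 library per mouse. The 6 Trained mice, 3 females and 3 males, had worked for food on fixed-ratio schedules whose cost in lever presses was raised over the sessions. The 5 Untrained mice, 3 females and 2 males matched for age and sex, were kept on the same food restriction and placed in the same chambers, where the food came free. Tissue was taken within 1 h of the last session, and the libraries carry the number of their sample (Trained 1, 2, 3, 12, 13 and 14; Untrained 5, 6, 10, 16 and 17). A further Untrained male that the authors removed for its low number of reads was not analysed here.

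Proteins of this family share an N-terminal domain that binds the catalytic subunits CNOT7 and CNOT8 of the CCR4-NOT complex, which shortens the poly(A) tails of mRNAs. Through this contact they speed the removal of tails and the decay of the messages, and forced expression slows the division of cultured cells, hence the name antiproliferative. BTG2 is also a target of p53 and an immediate early gene, switched on rapidly by growth factors and, in neurons, by depolarisation. BTG1 and BTG2 in addition bind the arginine methyltransferase PRMT1. TOB1 and TOB2 carry a longer C-terminal region that holds binding motifs for the cytoplasmic poly(A)-binding protein. TOB1 is also known as a repressor of BMP-Smad signalling.

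The upstream sequence of 3 members is shown because Btg2 alone held a whole cyclic AMP response element (CRE, TGACGTCA), the site of the activity-regulated factor CREB, while Btg1 and Tob1 held only its part TGACG. Each run goes from 200 bases before the RefSeq start (build GRCm38.p6) to the base just before it, 5′ to 3′ on the strand of the gene. Capitals mark TGACG or its reverse complement, and in Btg2 the whole element.
Btg2, chr1:134079156-134079355, minus strand: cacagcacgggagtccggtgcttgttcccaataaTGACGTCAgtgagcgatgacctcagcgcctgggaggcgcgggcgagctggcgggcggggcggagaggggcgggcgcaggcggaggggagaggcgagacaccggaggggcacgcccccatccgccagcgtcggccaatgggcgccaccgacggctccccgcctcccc
Btg1, chr10:96616801-96617000, plus strand: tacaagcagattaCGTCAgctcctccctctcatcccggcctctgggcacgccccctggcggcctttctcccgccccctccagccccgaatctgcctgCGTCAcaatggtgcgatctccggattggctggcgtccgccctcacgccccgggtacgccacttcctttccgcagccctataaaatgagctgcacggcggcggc
Tob1, chr11:94211254-94211453, plus strand: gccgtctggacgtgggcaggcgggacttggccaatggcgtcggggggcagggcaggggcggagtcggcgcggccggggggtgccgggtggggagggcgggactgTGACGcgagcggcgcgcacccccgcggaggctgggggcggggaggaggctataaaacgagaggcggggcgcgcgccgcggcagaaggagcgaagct

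The CRE of Btg2 began at position -166 from the start (0 being the start base), and its pair of TGACG copies, 1 on each strand, were both part of it. In Btg1 copies of TGACG began at -187 and -103, both on the opposite strand, and in Tob1 there was 1, at -96. Neither the 2 start sites of Btg3 nor that of Tob2 had a TGACG within the full window searched, 250 bases before to 50 after the start. The whole CRE was found on either strand in 1.79% of the 32851 RefSeq promoter windows of this length, and TGACG in 20.8%. A TATA box (TATAAA) lay in the windows of Btg1 and Tob1, against 13.6% of all windows. A CCAAT box was found in all members except Tob2, against 37.4% of all windows. AP-1 sites (TGANTCA), the EGR site GCGTGGGCG and the CArG box of serum response factor were found in none of the members' windows, and these occurred in 7.81%, 0.612% and 1.63% of all windows. The motifs were chosen after the sequences had been seen, and a match of letters is no evidence that a factor binds.

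Btg2 was the most variable member and the one with the largest difference of means. Its FPKM (fragments per kilobase of exon, scaled by the mapped fragments of the library) was 10.7, 7.61, 29.4, 28.6, 12.4 and 12.1 in Trained 1, 2, 3, 12, 13 and 14. In Untrained 5, 6, 10, 16 and 17 it was 4.94, 12.8, 9.72, 5.20 and 4.50. Trained 3 and Trained 12 stood above every other library, while the other 4 Trained libraries lay below Untrained 6, so the groups overlapped. Means were 16.8 ± 9.61 (SD, n = 6) and 7.44 ± 3.68 (SD, n = 5) FPKM, a ratio of 2.26. On the log2 scale this was 1.11 (standard error 0.368, 95% interval 0.31 to 1.90). The libraries behind the mean were unequal. Of the single libraries left out, Trained 3 gave the lowest log2 difference, 0.91, and Untrained 6 the highest, 1.33. With Untrained 16 and 17 both left out the difference was 0.79.

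Tob2 and Tob1, the members with the longer C-terminal region, had higher means in the Trained mice by a smaller amount. Tob2 was at 11.6, 9.63, 13.6, 12.9, 12.1 and 10.6 FPKM in Trained 1, 2, 3, 12, 13 and 14, and at 10.2, 10.5, 8.79, 9.55 and 8.49 FPKM in Untrained 5, 6, 10, 16 and 17. All but 1 of the Trained libraries exceeded every Untrained one, the exception being Trained 2. Its means were 11.7 ± 1.47 (SD, n = 6) and 9.51 ± 0.874 (SD, n = 5) FPKM, and the log2 difference was 0.30 (standard error 0.0917). Tob1 was the most abundant member by FPKM, a level per length, at 18.1, 17.1, 24.5, 24.2, 19.3 and 21.0 FPKM in the Trained libraries in the same order and 15.5, 18.5, 20.3, 16.2 and 18.1 FPKM in the Untrained. For Tob1 the groups overlapped widely, with 3 Trained libraries above every Untrained one, Trained 3 and Trained 12 again the highest. Its means were 20.7 ± 3.13 (SD, n = 6) and 17.7 ± 1.91 (SD, n = 5) FPKM, and the log2 difference was 0.22 (standard error 0.102). The exons of Tob2 overlap an antisense gene, Gm49476, over 289 bases, and the sources used here do not give whether counting used the strand.

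Btg1 and Btg3 were the least abundant members by FPKM and had the smallest differences of means. Btg1, the closest relative of Btg2, was at 5.63, 5.39, 5.77, 5.33, 5.35 and 6.20 FPKM in the Trained libraries and at 5.83, 5.41, 6.04, 4.87 and 4.74 FPKM in the Untrained, in the order used above. Values of both groups were interleaved, the means were 5.61 ± 0.339 (SD, n = 6) and 5.38 ± 0.570 (SD, n = 5) FPKM, and the log2 difference was 0.06 (standard error 0.0795, 95% interval -0.11 to 0.24). Reads of Btg1 could also be shared with its pseudogenes Btg1-ps1 and Btg1-ps2. Btg3 was at 6.63, 5.92, 5.33, 5.87, 5.81 and 5.13 FPKM in the Trained libraries and 6.37, 6.40, 6.22, 6.21 and 5.88 FPKM in the Untrained. Trained 1 was the highest library for Btg3 and Trained 14 the lowest, so the Trained values enclosed all the Untrained ones. Its means were 5.78 ± 0.527 (SD, n = 6) and 6.22 ± 0.204 (SD, n = 5) FPKM, which is -0.11 on the log2 scale (standard error 0.0722, 95% interval -0.26 to 0.05). Exons of Btg3 overlap those of Cxadr on the opposite strand over 695 bases.

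**Figure D1:**
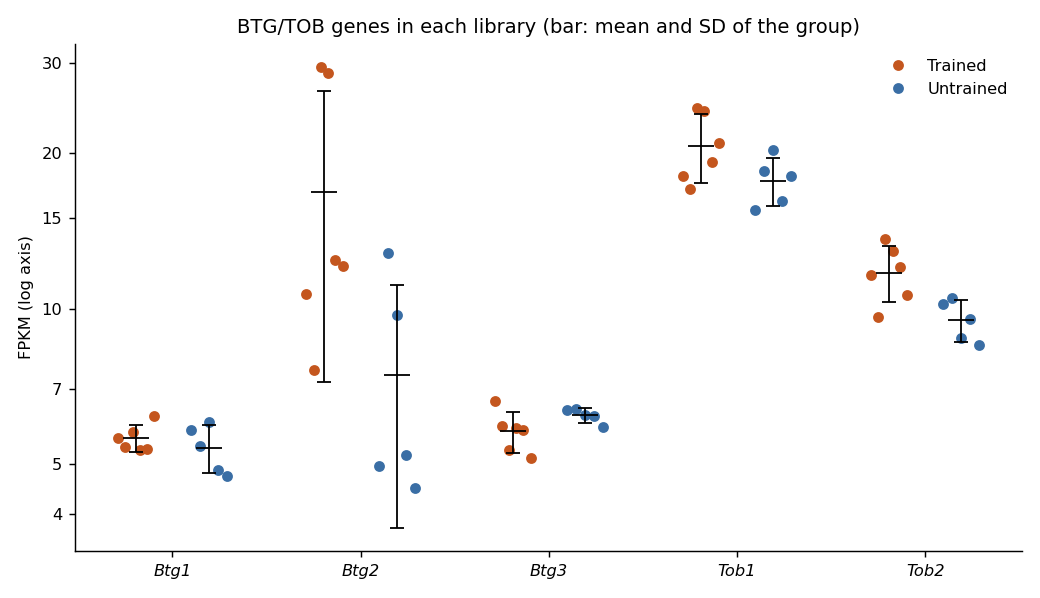
FPKM on a log axis of each BTG/TOB gene in the 6 Trained and 5 Untrained libraries, 1 point per library, with the mean and SD of each group. Btg2 spread from 4.50 to 29.4 FPKM, with Trained 3 and Trained 12 at the top, while Btg1 and Btg3 stayed between 4.74 and 6.63 FPKM.

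Of the 5 members 1, Btg2, passed the study's thresholds (unadjusted p under 0.01 and at least 1.5-fold in either direction) when these were applied to the FPKM values with limma, against 0.281% of the 14936 genes tested. Btg2 no longer passed without Trained 3, 12, 13 or 14 or without Untrained 5, 16 or 17, each left out alone. At an unadjusted p under 0.05, 2 of 5 members (Btg2 and Tob2) were higher in Trained mice, against 4.13% of all genes, and 0 of 5 were lower, against 4.2%. No member had groups that did not overlap, against 0.763% of all genes. With limma and Benjamini-Hochberg adjustment over all genes, 0 of 5 members and 0% of all genes had an adjusted p under 0.05. The median log2 difference of the members was 0.22, and that of all genes -0.003. Because the family was chosen with these values known, the thresholds are no test of the members, and nothing is read from the counts. In bulk tissue fewer cells of a type and less RNA per cell cannot be told apart, so the values are levels of the tissue.

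The members also differed in their scatter among mice of the same group. The SD within groups on the log2 scale was 0.74 for Btg2, which exceeded that of 99.6% of the 12808 genes that averaged 1 FPKM or more. Tob1 had an SD of 0.19 and Tob2 of 0.16, above the median of 0.14 over these genes, and Btg1 and Btg3 had 0.12 and 0.10, below it. The highest library of Btg2 was 6.54 times the lowest, and for Btg3 this ratio was 1.29. About 175 fragments were estimated to lie behind the lowest Btg2 value. The coefficient of variation of Btg2 was 57.1% among Trained and 49.5% among Untrained libraries.

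In order of mean level (FPKM, per length) the members ran Tob1, Btg2, Tob2, Btg3 and Btg1. Tob1 exceeded Btg2 in 9 of 11 libraries, the exceptions being Trained 3 and Trained 12. Btg2 and Tob2 had no fixed order, with Btg2 higher in 6 of 11 libraries, of which 4 were Trained. Tob2 exceeded Btg3 in all 11 libraries, the one pair of neighbours whose order held in each of them, and Btg3 exceeded Btg1 in 9. Btg2 made up 10.8% of the summed FPKM of the family in Untrained 17 and 37.4% in Trained 3, and the sum itself ran from 45.6 to 78.7 in the Trained and from 41.7 to 53.7 in the Untrained libraries.

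Btg2 followed Tob1 and Tob2 from mouse to mouse, while Tob1 and Tob2 followed each other less closely. Btg1 and Btg3 had lower correlations with all 3. With the group means subtracted, the Pearson correlation over 11 libraries was 0.87 between Btg2 and Tob1, 0.71 between Btg2 and Tob2 and 0.43 between Tob1 and Tob2. Btg1 had correlations of 0.08 to 0.25 with these 3 genes, and Btg3 of -0.46 to 0.08. All pairs share the same libraries, and Trained 3 and Trained 12 ranked first and second for Btg2, Tob1 and Tob2 alike.

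The genes most like Btg2 among 12807 compared, by the same correlation, included other rapidly induced genes. First came Dusp1 (0.92), which encodes a phosphatase that switches off MAP kinases. Prkab1 (0.91), a regulatory subunit of the AMP-activated kinase, Zfp36l2 (0.90), which binds AU-rich mRNA elements and brings deadenylases to them, Ier2 (0.90), an immediate early gene, and Npas4 (0.89), a transcription factor gene induced by neuronal activity, followed. Dusp1 had 83.7 FPKM in Trained 3, 68.4 in Trained 12 and 18.1 to 45.1 FPKM in the other 9 libraries. The order of these libraries at the top was thus that of Btg2.

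Over 10 immediate early genes (Fos, Fosb, Junb, Egr1, Egr2, Egr4, Nr4a1, Arc, Npas4 and Ier2) the group-centred correlation with Btg2 ran from 0.13 for Fosb to 0.90 for Ier2, with a median of 0.67. The median over the same genes was 0.62 for Tob2, 0.58 for Btg1, 0.29 for Tob1 and 0.25 for Btg3, against medians between -0.001 and 0.02 over all genes. Ranked by the mean log2 level of the 10 genes, the Trained libraries took the ranks 1 to 6 and the Untrained 7 to 11. These genes were chosen with earlier results of these data known, and all 10 had higher means in the Trained mice. The split is therefore no separate result and serves only as an order. Btg2 broke this order: Untrained 6 ranked 7 by the early genes and 3 by Btg2, and Trained 1 ranked 2 and 6.

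**Figure D2:**
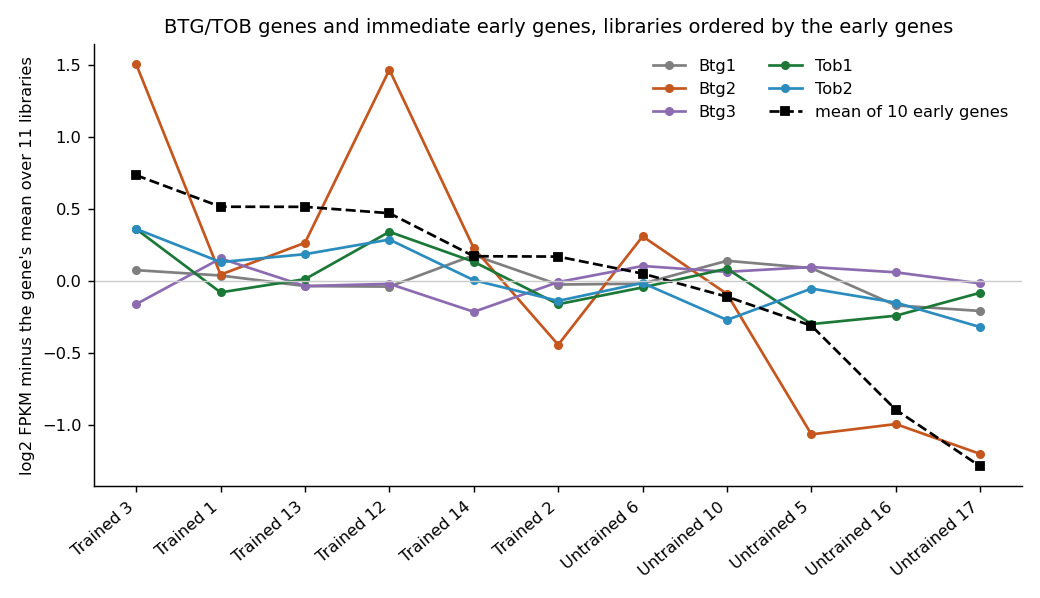
Log2 FPKM of each member minus its mean over the 11 libraries, with the mean of the 10 immediate early genes as a dashed line, and the libraries ordered from the highest to the lowest of that mean. Btg2 peaked in Trained 3 and Trained 12, and the mean of the early genes fell to -1.29 in Untrained 17. A mean of 10 genes is smoother than a single gene. Fos, Junb, Npas4 and Ier2 were also highest in Trained 3 and Trained 12, and the other early genes were not.

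The other members had neighbours of their own. Most like Btg1 were Dusp7 (0.95), another MAP kinase phosphatase, Sav1 (0.95), a scaffold of the Hippo pathway, and Kin (0.93), a nuclear DNA-binding protein. Most like Tob1 were Synm (0.90), an intermediate filament protein, Slc19a1 (0.87), the reduced folate carrier, and Btg2 itself (0.87). Most like Tob2 were Arl4d (0.93), a small GTPase of the ARF family, Sall3 (0.90), a zinc finger transcription factor, and Dedd2 (0.86), which carries a death effector domain. Before the group means were subtracted, Synm ranked 481 for Tob1 (0.53) and Sall3 374 for Tob2 (0.72). The other neighbours named in this paragraph then ranked from 1 to 8.

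Btg3 varied most closely, of the marker lists, with that of meningeal fibroblasts. Its nearest genes were Pcolce (0.90), an enhancer of procollagen processing, Fam96b (0.89), a factor of iron-sulphur cluster assembly, and Igfbp7 (0.89), a secreted protein abundant in vessels. Before the group means were subtracted, Pcolce ranked 1 (0.90), Fam96b 969 (0.49) and Igfbp7 64 (0.76). The group-centred correlation of Btg3 with the mean of 6 meningeal fibroblast markers was 0.83, the largest of any member with any marker list. With 6 endothelial markers it was 0.67, and with microglia, mural cell and astrocyte markers 0.57, 0.54 and 0.45. The summed level of the meningeal markers was 13.8 to 28.2 FPKM in the Trained and 20.6 to 42.0 FPKM in the Untrained libraries, all 6 had lower means in the Trained mice, none was at 0, and Igf2 contributed most. The smallest sums were those of Trained 3 and Trained 14, where Btg3 was at 5.33 and 5.13 FPKM. The largest sum, 42.0 FPKM in Untrained 10, and the smallest Untrained sum, 20.6 FPKM in Untrained 16, went with almost equal Btg3, 6.22 and 6.21 FPKM. The part of these cells in the difference of Btg3 was not tested.

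No member passed the test for sex or for the range of the library numbers. For females minus males, with training in the limma fit, the log2 differences of the members lay between -0.20 (Btg2) and 0.05 (Btg3), with adjusted p of 0.606 to 0.951. None of the 5 passed an adjusted p of 0.05 or an unadjusted p of 0.05, against 2.13% of all genes at the adjusted and 22.3% at the unadjusted threshold. The 95% interval for Btg2 was wide, -1.01 to 0.60. Libraries numbered 10 to 17 were separated from those numbered 1 to 6 by the first principal component of all genes, which held 31.5% of the variance. What the numbers stand for is not given, and they are used only as a label that divides the libraries. Numbers 1 to 6 were all female, and numbers 10 to 17 all male except Untrained 17. The contrasts of sex and of number range therefore cannot be told apart. Members differed between these ranges by -0.08 (Btg3) to 0.11 (Tob1) on the log2 scale, limma adjusted p 0.509 to 0.988, and 0 of 5 passed at either threshold, against 9.51% of all genes at the adjusted and 27% at the unadjusted one.

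The training difference of the members was also compared between the sexes. The log2 difference of differences, females minus males, was -0.17 for Btg2 with a 95% interval of -1.86 to 1.51, and between -0.12 and 0.08 for the others. With the interaction term in limma, adjusted p was 0.962 to 0.990, 0 of 5 members passed at either threshold, and of all genes 0% passed at an adjusted and 4.1% at an unadjusted p of 0.05. The intervals leave room for sizeable differences between the sexes at this number of mice.

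Within each sex and each range of library numbers, Btg2, Tob1 and Tob2 kept a higher mean in the Trained libraries. The males and numbers 1 to 6 held 3 Trained and 2 Untrained libraries each. The females and numbers 10 to 17 held 3 of each group. These settings are not separate checks. The Trained females are the Trained libraries of numbers 1 to 6, and the Trained males those of numbers 10 to 17. The log2 difference of Btg2 was 1.01 in females and 1.18 in males (standard errors 0.510 and 0.383). It was 0.74 among numbers 1 to 6 against 1.40 among numbers 10 to 17 (standard errors 0.549 and 0.360). Tob2 gave 0.24 in females, 0.37 in males, 0.15 among numbers 1 to 6 and 0.40 among numbers 10 to 17 (standard errors 0.106 to 0.130). Tob1 gave between 0.18 and 0.24 in these settings, with standard errors of 0.116 to 0.146. Btg3 gave between -0.15 and -0.06, and Btg1 between -0.01 and 0.11.

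**Figure D3:**
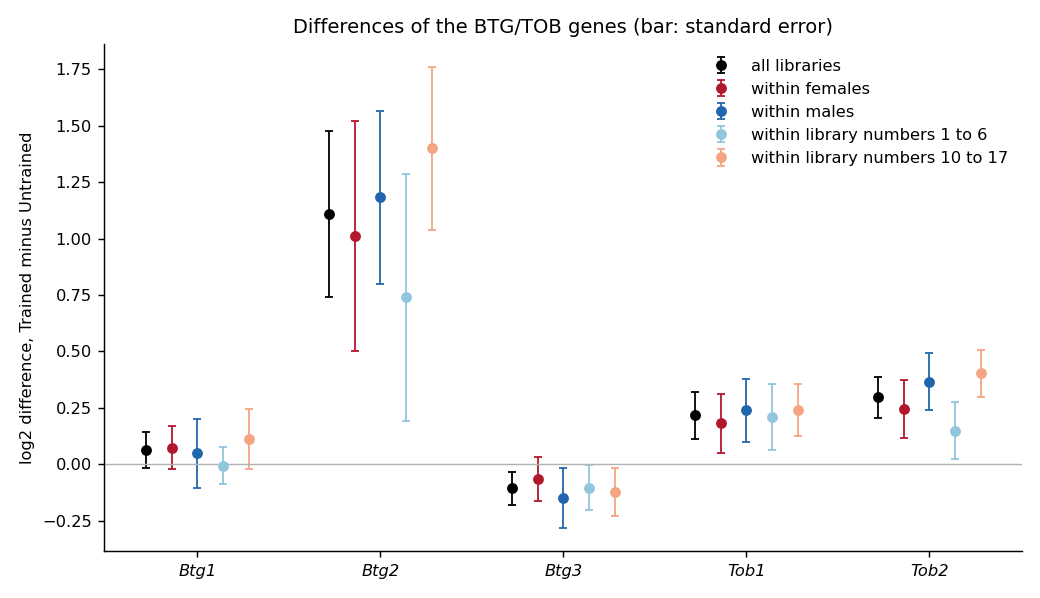
Log2 difference of each member, Trained minus Untrained, with its standard error, over all libraries and within each sex and each range of library numbers. Btg2 lay between 0.74 and 1.40 in every setting, Tob1 and Tob2 were above 0 throughout, and Btg1 and Btg3 were close to it.

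No gene of the machinery that BTG and TOB proteins act on passed the adjusted threshold, which 0 of all 14936 genes tested passed. At an unadjusted p of 0.05, 4.13% of all genes were higher and 4.2% lower. All 11 measured CCR4-NOT subunits had slightly lower means in the Trained mice, while 49.1% of all genes had higher means there. The log2 differences of the subunits ran from -0.16 to -0.002, with a median of -0.05, against -0.003 over all genes. With all libraries 0 of 11 passed the test at an unadjusted p of 0.05. The smallest p belonged to Cnot3, with 11.6 ± 0.918 FPKM (SD, n = 6) against 12.7 ± 0.759 FPKM (SD, n = 5) in the Untrained mice (limma adjusted p = 0.613). Cnot8, 1 of the catalytic subunits that the family binds, was next, at 18.2 ± 0.954 against 19.4 ± 0.762 FPKM (limma adjusted p = 0.618). With single libraries left out, Cnot3 passed an unadjusted p of 0.05 without Trained 1, Trained 2 or Untrained 16, and Cnot8 without Untrained 10.

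Among 10 genes of other poly(A) tail factors (PAN2-PAN3, poly(A)-binding proteins and their regulators) 1 passed an unadjusted p of 0.05. Of all genes, 4.13% passed as higher and 4.2% as lower. The list gene that passed was Paip1, a partner of poly(A)-binding protein that promotes translation, with a log2 difference of -0.19 (limma adjusted p = 0.578). Paip2, which displaces that protein from the tail, had a difference of -0.10 (limma adjusted p = 0.597). The 10 RNA-binding proteins that recruit deadenylases were divided evenly, with 5 means higher and 5 lower in the Trained mice and a median log2 difference of -0.003. None of 9 decapping and decay genes passed, the smallest p being those of Edc3 (log2 difference 0.12, and 0.07 without Untrained 10) and Lsm1 (0.15, and 0.10 without Untrained 10). Edc3 passed an unadjusted p of 0.05 without Untrained 5 and Lsm1 without Untrained 6.

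Genes of the p53 and growth arrest programme, to which Btg2 belongs, lay on both sides of 0. At an unadjusted p of 0.05, 2 of 16 had passed as higher and 1 as lower, against 4.13% and 4.2% of all genes. The median log2 difference of the list was -0.005. Plk3, a stress-induced kinase known as rapidly inducible, had 9.95 ± 1.64 FPKM (SD, n = 6) in the Trained mice. The Untrained mice had 7.58 ± 1.65 FPKM (SD, n = 5), with a limma adjusted p of 0.558. Bbc3, which encodes the proapoptotic PUMA, had a log2 difference of 0.36 (limma adjusted p = 0.578), and Ccng1, a cyclin and p53 target, -0.12 (limma adjusted p = 0.590).

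Cell cycle genes, on which the antiproliferative action is defined, gave no call. Of 16 genes of the G1 to S step 0 passed in either direction, the smallest p being those of Rbl2, a pocket protein (log2 difference -0.11), and Ccnd1, cyclin D1 (-0.13). Of 7 measured markers of dividing cells 0 passed, and Mcm5 and Mcm2, subunits of the replicative helicase, were at only 1.62 and 1.42 FPKM in Trained mice. The log2 difference of Mcm5 was 0.18, and 0.11 without Untrained 16. Of 16 genes of PRMT1 and the BMP-Smad pathway 0 passed. Id1, a BMP target, gave a log2 difference of 0.30 (limma adjusted p = 0.612), and 0.20 without Untrained 16, and Smad6, an inhibitory Smad, -0.34 (limma adjusted p = 0.613). In all, 2 of the 95 related genes tested were higher at an unadjusted p of 0.05 (2.11%, against 4.13% of all genes) and 3 lower (3.16%, against 4.2%), and with limma 0 had an adjusted p under 0.05. These counts rested on single libraries. The number higher became 0 without Untrained 17, 1 without Trained 3, 4 without Trained 14 or Untrained 5, 5 without Untrained 6 and 8 without Untrained 10. The number lower became 0 without Trained 13, 1 without Trained 1, Trained 3 or Untrained 17, 5 without Untrained 5 or Untrained 6, 6 without Trained 2 and 10 without Trained 14.

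**Figure D4:**
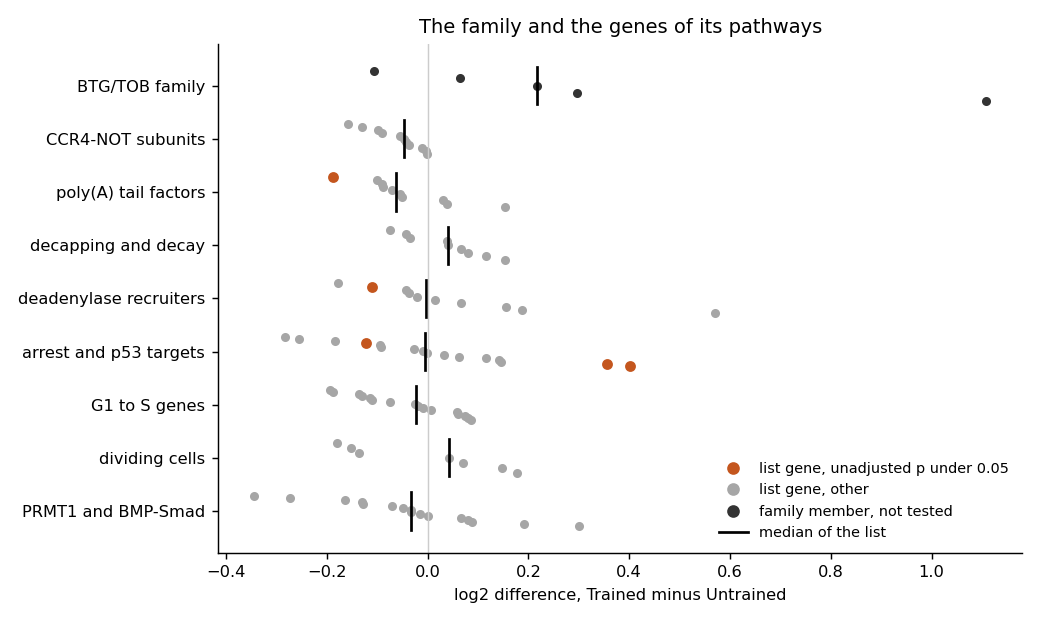
Log2 difference, Trained minus Untrained, of each family member and of each gene in the 8 related lists, with the median of the list as a bar and the 5 list genes at an unadjusted p under 0.05 in orange. Btg2, at 1.11, lay beyond every gene of the related lists, the furthest of which was Zfp36 at 0.57.

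Zfp36, an AU-rich element binding protein named here after its values were seen, reached 9.49 FPKM in Trained 3 and 7.09 in Trained 12, the libraries that led for Btg2, but also 8.28 in Untrained 10. In the remaining libraries it lay between 1.79 and 4.15 FPKM. Its log2 difference of 0.57 did not pass the test (limma adjusted p = 0.705).

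Slc17a7, the vesicular glutamate transporter of cortical excitatory neurons, was at 694 to 761 FPKM, which does not by itself identify the ACC. The sum of 8 excitatory markers was 907 to 983 FPKM in the Trained and 904 to 1020 FPKM in the Untrained libraries. Oligodendrocyte markers summed to 275 to 1036 FPKM in the Trained and 332 to 592 FPKM in the Untrained libraries, with Trained 3, the highest for Btg2, at the top. In Trained 12, almost level with it for Btg2, they summed to 315 FPKM. The choroid plexus gene Ttr reached 164 FPKM in Untrained 10 and at most 4.07 FPKM in the Trained libraries. Estimated depth was 14200000 to 27000000 fragments, lowest in Untrained 17, which was also lowest for Btg2, Tob2 and Btg1, and the part of these features in the members' values was not tested.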

How the data were processed

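Poly(A) RNA-seq reads were processed by the authors, who, per the labels and their methods, trimmed with Trimmomatic 0.38, aligned to mm10 with Bowtie2 2.3.5.1, counted with featureCounts of Subread 1.6.3 and tested counts with edgeR 3.30.3. The deposited table gives FPKM per gene and library, with no counts. Bowtie2 does not split reads across introns, so genes with many introns lose reads, and levels of different genes compare less well than libraries do. A second deposited table holds the authors' own fold changes, p-values and FDR and was not used.

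Here log2(FPKM + 0.1) of genes that averaged 0.1 FPKM or more was fitted with limma 3.58.1 (R 4.3.3; lmFit, eBayes with trend), Trained against Untrained without covariates. This replaces the count test of the authors, and fold changes of low genes are understated. All 5 members passed the filter. Sex, library number range and the sex-by-training interaction were fitted likewise, all two-sided with Benjamini-Hochberg adjustment. The fit was tested on simulated data. Libraries came from separate mice, and p-values measure the spread among them; which litter each came from is not given in the labels. Depth was estimated from the steps of low FPKM values, 44.3 to 51.0% of which lay within 0.1 of a whole fragment, and is rough.

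Members and gene lists were chosen with earlier results of these data known. The text names the members, the genes of each related list at an unadjusted p under 0.05 (or the 2 smallest p), the 5 genes most like Btg2 and the 3 most like each other member (of the genes averaging 1 FPKM or more) and markers that move with a member. One result that this rule would name is not reported here. Alternatives were other pseudocounts, filters, scalings, variance models, covariates and left-out libraries. Promoter windows came from RefSeq (GRCm38.p6) and overlaps from GENCODE M21, which matched 96.2% of the symbols. Python 3.11.15 with pandas 2.3.3 and matplotlib 3.10.9 was used.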

Additional observations from a re-analysis of the deposited data

How the results depend on the processing

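The log2 difference of each member kept its direction under every alternative run, except for Btg1. It went from 0.06 to -0.04 with Untrained 16 and 17 both left out and to -0.01 among library numbers 1 to 6. Sizes moved more: among numbers 1 to 6 and 10 to 17 Btg2 gave 0.74 and 1.40, against 1.11 over all libraries. Tob2 gave 0.15 and 0.40 there, against 0.30. With Untrained 16 and 17 both left out Btg2 gave 0.79. Leaving out single libraries gave 0.91 to 1.33 for Btg2, 0.25 to 0.35 for Tob2, 0.16 to 0.27 for Tob1, 0.02 to 0.11 for Btg1 and -0.15 to -0.07 for Btg3. The passing of the study's thresholds by Btg2 was borderline and held in 8 of 23 settings. The count of members passing was 0 in place of 1 with a pseudocount of 1, only genes averaging 1 FPKM or more, quantile normalization, robust variance, array weights, sex or library number range as a covariate, or Untrained 16 and 17 both left out. It ranged from 0 to 1 on leaving out single libraries, with 0 without Trained 3, 12, 13 or 14 or Untrained 5, 16 or 17. Genes called by these thresholds were 22 higher and 20 lower, and 12 and 0 with a pseudocount of 1; 13 were lower under array weights and 6 when only genes averaging 1 FPKM or more were kept. Leaving out single libraries gave 16 to 35 higher (35 without Untrained 6, 34 without Untrained 10) and 11 to 35 lower (11 without Trained 13, 35 without Untrained 5). Related genes at an unadjusted p under 0.05 were 2 higher and 3 lower, against 6 and 5 with array weights, 4 higher with sex as a covariate, 7 lower with the number range as a covariate, 0 higher without Untrained 16 and 17, and 0 to 8 higher and 0 to 10 lower without single libraries. No member was called for sex, number range or interaction under any alternative run, and without single libraries that count stayed at 0. Of the 17 genes named as most like a member, 10 were also named when group means were not subtracted. The cause of these changes was not tested. No paired analysis was possible because the groups share no replicate numbers. Each member had an estimated 175 fragments or more in every library, and the part of depth in its values was not tested.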
